A study of Mus musculus with 2 samples.

Results

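Natural killer (NK) cells of the neonatal mouse lung were examined in 2 single-cell RNA libraries, 1 from pups kept in room air (21% O2) and 1 from pups kept in hyperoxia (80% O2) from birth to postnatal day 14. Each library pooled the perfused and enzymatically digested lungs of 8 C57BL/6 mice (the substrain of the wild-type mice is C57BL/6J in the study's methods) and was the only library of its group, and the labels name no allele, transgene or agent other than oxygen. The members were selected on the measured counts themselves, so the genes of the rule are a description and not a finding. Barcodes were kept from 500 detected genes up and with no more than 20% of counts from mitochondrial genes, and a barcode was taken as an NK cell with at least 2 counted molecules (unique molecular identifiers, UMIs) over *Ncr1*, *Klrb1c* and *Klre1*, at least 1 UMI of *Nkg7*, and no UMI of *Cd3e*, *Cd3d*, *Cd3g*, *Cd79a*, *Csf1r*, *Cdh5* or *Epcam*. This gave 80 NK cells of 15520 kept barcodes, 17 of 3809 in room air and 63 of 11711 in hyperoxia.

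NK cells are innate lymphocytes that recognise stressed, infected or transformed cells through a balance of activating and inhibitory surface receptors, without the rearranged antigen receptors of T and B cells. They kill with granules that hold perforin and granzymes, and they secrete interferon-gamma and chemokines that call in other leukocytes. In the lung many of them lie in the vessels, and in mice their mature forms and their set of Ly49 receptors arise in the weeks after birth.

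With 1 pooled library per group no test between room air and hyperoxia could be made, and cells of 1 pool are not replicates. Levels are given as the UMIs of a gene summed over the NK cells of a library, per 1000000 of their UMIs (CPM), and intervals are exact 95% intervals that cover counting error only. The NK cells held 150073 UMIs in room air (lowest 2666, median 7203, highest 26146 per cell) and 296612 in hyperoxia (lowest 1202, median 3696, highest 23774), so that 1 UMI was worth 6.66 and 3.37 CPM. A gene at 0 could have been present at up to 3 UMIs, or 19.99 and 10.1 CPM. The whole libraries held 39593888 and 111934936 UMIs over 27998 genes, and 17 barcodes occurred in both libraries, of which 0 were NK cells.

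The limits of the rule cut through few cells, apart from the limit on CD3 transcripts. Barcodes with 1 UMI over the 3 receptor genes that met all other conditions numbered 2 in room air and 4 in hyperoxia, and members with exactly 2 numbered 1 and 7. Of the barcodes with at least 2 such UMIs and *Nkg7*, 49 in room air and 143 in hyperoxia, the CD3 condition alone removed 21 and 49, and the *Cdh5* condition alone removed 2 and 13. In 17 of those 21 and 33 of those 49 no *Cd3e* was counted, the UMIs being of *Cd3g* or *Cd3d*, which code for other chains of the same complex. These 17 and 33 barcodes had *Eomes* in 11 and 21 cells, *Tyrobp* at 2777 and 1958 CPM, *Cd6* at 0 UMIs in both libraries and *Cd5* at 0 and 2 UMIs. Counting them as NK cells, an alternative added after the data had been seen, gave 34 and 96 members, and log2 ratios in this wider gate are given beside a number of genes below.

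Other markers of NK cells were found in most members. *Klrd1* (CD94, the partner chain of the NKG2 receptors) was counted in 17 of 17 cells in room air and 58 of 63 in hyperoxia, *Tyrobp* (the adaptor DAP12) in 17 and 59, *Klrk1* (NKG2D) in 16 and 57, *Il2rb* (a receptor chain for interleukin-15) in 14 and 46, and the T-box factors *Eomes* and *Tbx21* in 12 and 37 and in 12 and 34. *Itga2*, the integrin recognised by the DX5 antibody, was counted in 7 and 9 cells. Of 9 T cell markers that the rule did not use, 5 had a UMI, in 10 of 17 and 25 of 63 cells, and the list summed to 187 and 108 CPM. Most of this was *Cd28*, a costimulatory receptor of T cells, with 23 and 21 UMIs (153 and 70.8 CPM, log2 ratio -1.11, -2.04 to -0.20). *Cd4*, *Cd5*, *Cd6* and *Trat1* were at 0 UMIs in both libraries, and *Cd8a* and *Cd8b1* at 1 UMI each in all. The part of these transcripts in the results was not tested. The ILC2 and ILC3 genes *Il23r*, *Il22*, *Il17a*, *Il13*, *Il5* and *Areg* were at 0 UMIs as well. All 5 dendritic cell markers were at 0 UMIs in both libraries. *Xist* was counted in 4 of 17 and 13 of 63 cells and a Y-linked transcript in 12 and 35, so both sexes were present in both pools.

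Some members also carried transcripts of other cell types. The 7 markers of stromal cells (*Col1a1*, *Col1a2*, *Col3a1*, *Mfap4*, *Pdgfra*, *Dcn* and *Inmt*) summed to 1686 CPM in the room air and 3230 CPM in the hyperoxia library, with a median of 1 UMI per cell in both libraries and a highest value of 236 and 376 UMIs. The 8 markers of macrophages and monocytes summed to 446 and 169 CPM, and 49 of the 61 *Lyz2* UMIs of room air came from 1 cell. Taking members with over 0.25% and at least 10 of their UMIs from either list singled out 2 of 17 cells in room air and 5 of 63 in hyperoxia, which held 28.6% and 24.5% of the members' UMIs. Without these 7 cells the stromal markers summed to 140 and 313 CPM. Doublets were not called, and log2 ratios without these cells are given beside a number of genes below. Epithelial transcripts did not follow these cells, and the 7 epithelial markers summed to 959.5 and 1477 CPM with all members, against 997 and 3567 CPM in B cells of the same libraries, led by *Sftpc* (surfactant protein C) at 320 and 772 CPM in NK cells. The source of these transcripts and their part in the results below were not tested.

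**Figure D1:**
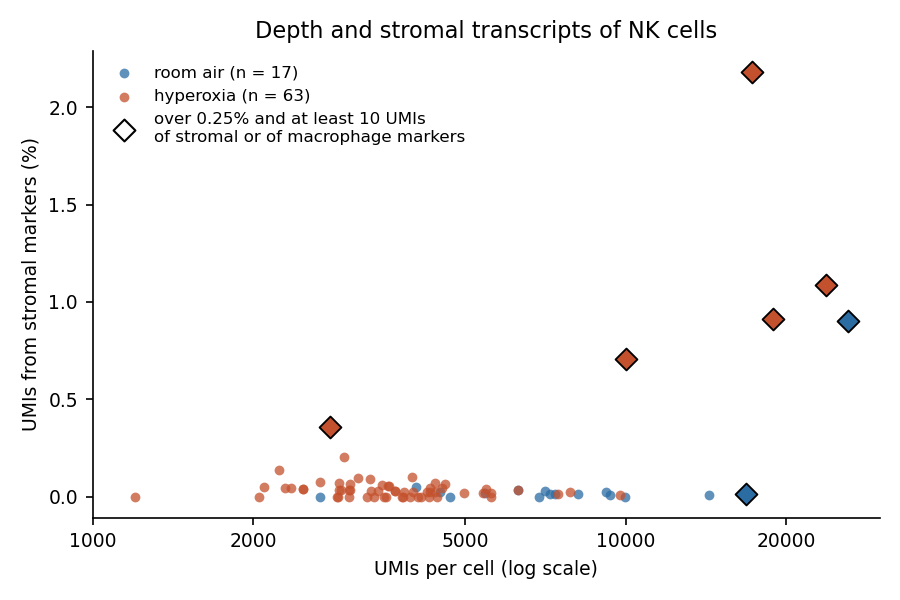
Share of UMIs from 7 stromal markers (y axis, percent) against the UMIs of each NK cell (x axis, log scale), with room air in blue (17 cells) and hyperoxia in red (63 cells); diamonds are the 7 cells with transcripts of another cell type. Of the 7 diamonds 6 lie at 10027 UMIs or above, and the blue diamond near 0% is the room air cell with 49 *Lyz2* UMIs.

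NK cells were a small share of both libraries. They made up 0.446% of kept barcodes in room air (interval 0.260 to 0.714%) and 0.538% in hyperoxia (0.414 to 0.688%), and these intervals overlapped. Of the gated NK, T and B cells they were 3.25% (1.91 to 5.15%) and 3.31% (2.55 to 4.21%). Gated CD8 T cells were taken in the same way by CD3 and CD8 transcripts, with no UMI of *Ncr1*, *Klrb1c* or *Klre1*. They were 1.68% (1.30 to 2.14%) and 3.27% (2.96 to 3.61%) of kept barcodes, so their intervals did not overlap. Counting the barcodes with *Cd3g* or *Cd3d* but no *Cd3e* as NK cells gave 0.893% and 0.820%, with the order of the libraries turned. With every barcode thinned to 1000 UMIs before the rule, the order was turned as well, at 0.404% (0.226 to 0.666%) and 0.362% (0.260 to 0.490%), and these intervals overlapped.

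The genes that set the members apart were mostly receptor genes of 1 locus. The 15 genes outside the rule with the largest ratio of members to all other kept barcodes, in the library where that ratio was smaller, were *Klri2*, *Klrk1*, *Klra9*, *Klra7*, *Gzma*, *Eomes*, *Klrc2*, *Klra4*, *Klrb1b*, *Klrc1*, *Ccl5*, *Klrg1*, *Klrd1*, *Tbx21* and *Il2rb*. Since the rule chose the cells, this is a description. *Klrk1* was at 873 CPM in NK cells against 7.19 CPM in the other barcodes in room air, and at 674 against 5.79 CPM in hyperoxia. *Gzma* (granzyme A) was at 7243 against 81.6 CPM and at 7468 against 66.0 CPM. *Klri2*, whose product pairs with that of *Klre1*, was at 273 against 1.62 CPM and at 219 against 0.986 CPM. All 24 genes with a *Klr* symbol and at least 1 UMI in the members lie on chromosome 6 (GRCm38, GENCODE vM21), between 122270596 and 131247362, a stretch of 8.98 Mb that holds the NK gene complex. *Ncr1* (NKp46), the gene of the rule on another chromosome, lies on the plus strand of chromosome 7 from 4337724 to 4345164.

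The 150 bases before the RefSeq start site (GRCm38.p6) are shown for *Ncr1* as the receptor that defines the cells, for *Gzma* as their most abundant granule gene, and for *Xcl1* and *Ccl3*, the chemokine genes among the results below for which a window was at hand. Capitals mark TCACAC, the core of T-box sites, and TGTGGT, the core of RUNX sites, on either strand.
Ncr1 (chr7:4337565-4337714, plus strand): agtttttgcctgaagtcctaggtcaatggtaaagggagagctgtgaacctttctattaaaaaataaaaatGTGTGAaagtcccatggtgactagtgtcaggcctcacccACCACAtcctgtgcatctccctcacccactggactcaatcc
Gzma (chr13:113100982-113101131, minus strand): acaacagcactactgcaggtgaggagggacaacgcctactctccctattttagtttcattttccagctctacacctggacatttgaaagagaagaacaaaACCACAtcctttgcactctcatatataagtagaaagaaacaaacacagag
Ccl3 (chr11:83649379-83649528, minus strand): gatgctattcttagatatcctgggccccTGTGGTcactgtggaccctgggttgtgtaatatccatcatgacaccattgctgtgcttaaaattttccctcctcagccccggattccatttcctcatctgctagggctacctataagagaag
Xcl1 (chr1:164935523-164935672, minus strand): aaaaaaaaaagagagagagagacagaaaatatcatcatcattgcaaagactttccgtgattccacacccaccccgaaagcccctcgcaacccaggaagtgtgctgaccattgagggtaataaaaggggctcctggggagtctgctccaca

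TGTGGT began 41 bases before the start site in *Ncr1*, 50 bases in *Gzma* and 122 bases in *Ccl3*, and TCACAC began 80 bases before it in *Ncr1*. TGTGGT was found in 4 of the 10 leading genes with a window (*Klrk1*, *Gzma*, *Klrc2* and *Klrc1*) and in 8.40% of 32851 windows of all genes, TCACAC in 0 of the 10 and in 7.53% of all, and TATAAA in 2 of the 10 and in 7.57% of all. TATAAA was found in none of the 4 windows shown. A match describes the letters and is not a site of binding.

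Genes with a mean of at least 50 CPM over the libraries were compared between hyperoxia and room air, and a gene counted as past the fold with at least 2-fold more or less CPM. Of 3199 genes, 7.28% were past the fold upwards and 4.38% downwards, with a median log2 ratio of 0.02. The genes of 18 lists of NK cell functions and stress responses (284 genes, 266 with a UMI, 162 compared) had 18 past the fold upwards (11.1%) and 10 downwards (6.17%).

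Of 15 activating receptors and adaptors compared, 1 was past the fold upwards and 2 downwards, with a median log2 ratio of -0.37. The adaptor *Tyrobp* was at 2352 CPM (2113 to 2611) in room air and 1939 CPM in hyperoxia (1783 to 2104), and *Fcer1g*, the signalling chain of NKp46 and of the Fc receptor, at 1613 and 1618 CPM. *Hcst*, the NKG2D adaptor DAP10, was at 693 and 421 CPM, a log2 ratio of -0.72 (-1.10 to -0.33). *Cd226* (DNAM-1, a receptor for nectin-family ligands) was past the fold downwards, with 27 UMIs in 13 of 17 room air cells and 17 UMIs in 17 of 63 hyperoxia cells. This was 180 CPM (119 to 262) against 57.3 CPM (33.4 to 91.8), a log2 ratio of -1.65 (-2.62 to -0.72), -1.65 without the cells with transcripts of another type, and -1.63 with the barcodes without *Cd3e* counted in. *Fcgr3*, the Fc receptor CD16, had a log2 ratio of -1.22 (-2.24 to -0.21) with all members and -0.44 without those cells. *Zap70* was past the fold upwards at 46.6 and 97.8 CPM, with an interval that included 0 (-0.15 to 2.50).

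The Ly49 receptors, coded by *Klra* genes and many of them specific for MHC class I, were each found in a part of the cells. In room air 12 of 17 cells had a UMI of at least 1 of 9 *Klra* genes and 5 had UMIs of 2 or more, and in hyperoxia these numbers were 41 and 19 of 63. After thinning to 1000 UMIs per cell, 8 of 17 and 33 of 63 cells had at least 1. *Klra7* was counted in 6 and 19 cells, at 247 and 266 CPM. *Klra9* was counted in 4 and 19 cells, at 107 and 246 CPM (log2 ratio 1.21, 0.41 to 2.09), and the log2 ratio was 0.75 with the barcodes without *Cd3e* counted in. *Klra3* was lower in hyperoxia, at 240 CPM in 5 cells against 91.0 CPM in 7 cells (log2 ratio -1.40, -2.17 to -0.64, and -0.96 in the wider gate), and 14 of its 36 room air UMIs came from 1 cell. *Klra8* (Ly49H) had 0 UMIs in room air and 26 UMIs in 8 cells of hyperoxia, at least 4.38-fold higher against the floor of 3 UMIs in room air. These genes are near-identical copies, so the counting could have split or lost reads between them. *Klrd1* was at 1179 and 1008 CPM and its partners *Klrc1* and *Klrc2* at 187 and 273 CPM and at 453 and 418 CPM. Of the 7 inhibitory receptors compared, 1 was past the fold in each direction, with a median log2 ratio of 0.11.

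**Figure D2:**
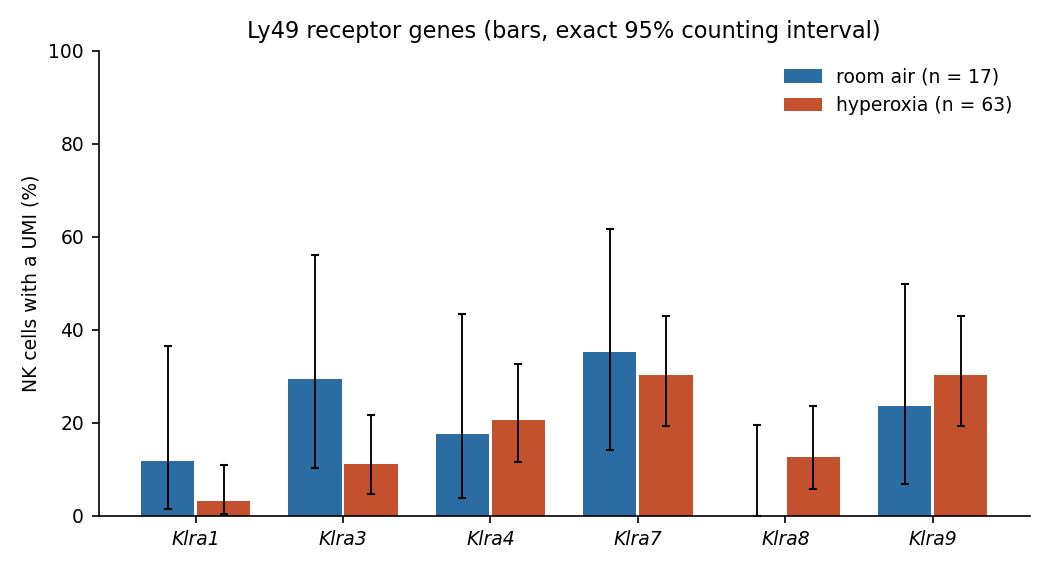
Percent of NK cells with at least 1 UMI of 6 Ly49 genes (y axis) in room air (blue, 17 cells) and hyperoxia (red, 63 cells), with exact 95% counting intervals. The intervals of the libraries overlap for each gene, and the *Klra8* bar of room air is at 0%.

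The granule genes were led by *Gzma*, which did not differ between the libraries beyond counting error. It was counted in 16 of 17 cells in room air (lowest 0, median 68, highest 122 UMIs) and 56 of 63 in hyperoxia (lowest 0, median 34, highest 80), at 7243 CPM (6819 to 7687) and 7468 CPM (7160 to 7785). The cell counts overlapped over most of their range. *Prf1*, the pore protein perforin, was past the fold, with 14 UMIs in 6 cells (highest 5) against 66 UMIs in 35 cells (highest 5). It was at 93.3 CPM (51.0 to 157) and 223 CPM (172 to 283), a log2 ratio of 1.25 (0.41 to 2.20) with all members, 0.96 without the cells with transcripts of another type and 1.03 in the wider gate. *Serpinb9*, an inhibitor of granzyme B that protects the killer cell, was at 393 and 718 CPM (log2 ratio 0.87, 0.45 to 1.31), and *Gzmb* at 233 and 307 CPM (0.40, -0.18 to 1.002). Of 13 granule genes compared, 10 had the higher level in hyperoxia, 1 was past the fold upwards and 0 downwards, and the median log2 ratio was 0.40. In B cells, which should lack these genes, *Gzma* was counted in 1.68% and 1.35% of cells and *Prf1* in 0% of both, at median depths of 4667 and 2983 UMIs.

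Several chemokine genes were higher in hyperoxia with the rule as given. *Ccl5* (RANTES) was counted in 17 of 17 room air cells (lowest 5, median 44, highest 177 UMIs) and 58 of 63 hyperoxia cells (lowest 0, median 57, highest 184). It was at 6217 CPM (5824 to 6629) and 12390 CPM (11993 to 12797), a log2 ratio of 0.99 (0.89 to 1.10). *Ccl4* (MIP-1beta), a chemokine that draws in other leukocytes, had 21 UMIs in 6 cells of room air, 15 of them in 1 cell, and 180 UMIs in 31 cells of hyperoxia, 43 of them in 1 cell. It was at 140 CPM (86.6 to 214) and 607 CPM (521 to 702), a log2 ratio of 2.12 (1.46 to 2.84). *Ccl3* (MIP-1alpha) had 4 UMIs in 4 cells and 32 UMIs in 20 cells, at 26.7 and 108 CPM (log2 ratio 2.02, 0.52 to 3.98). *Xcl1*, the ligand of XCR1 on cross-presenting dendritic cells, had 7 UMIs in 4 cells (highest 4) and 69 UMIs in 13 cells (highest 27), at 46.6 and 233 CPM (log2 ratio 2.32, 1.20 to 3.69). *Ifng* was at 213 and 212 CPM, *Fasl* at 40.0 and 77.5 CPM and *Ltb* at 153 and 138 CPM. Of 7 genes of this list compared, 3 were past the fold upwards and 0 downwards, with a median log2 ratio of 0.99.

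The chemokine differences depended on the CD3 condition. Among the barcodes with *Cd3g* or *Cd3d* and no *Cd3e*, the order of the libraries was turned, with *Ccl4* at 552 and 336 CPM in room air and hyperoxia, *Xcl1* at 485 and 179 CPM, *Ccl3* at 100.4 and 27.1 CPM and *Ccl5* at 12329 and 9463 CPM. With these barcodes counted as NK cells the log2 ratio was 0.64 for *Ccl4*, 0.37 for *Ccl3*, 0.34 for *Ccl5* and -0.19 for *Xcl1*. The chemokine ratios of the strict NK cells are thus values of that gate, and 17 room air cells stand behind them. In B cells *Ccl4* was counted in 1.68% and 2.19% of cells and *Ccl5* in 0.84% and 3.03%. At 1000 UMIs per cell the expected share of NK cells with *Ccl4* was 9.61% and 27.2%, a difference of 17.6 percentage points whose interval included 0 (-8.71 to 33.0), and of B cells 0.331% and 0.614%. The interval of this difference included 0 for each of the 17 NK cell genes for which it was computed.

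**Figure D3:**
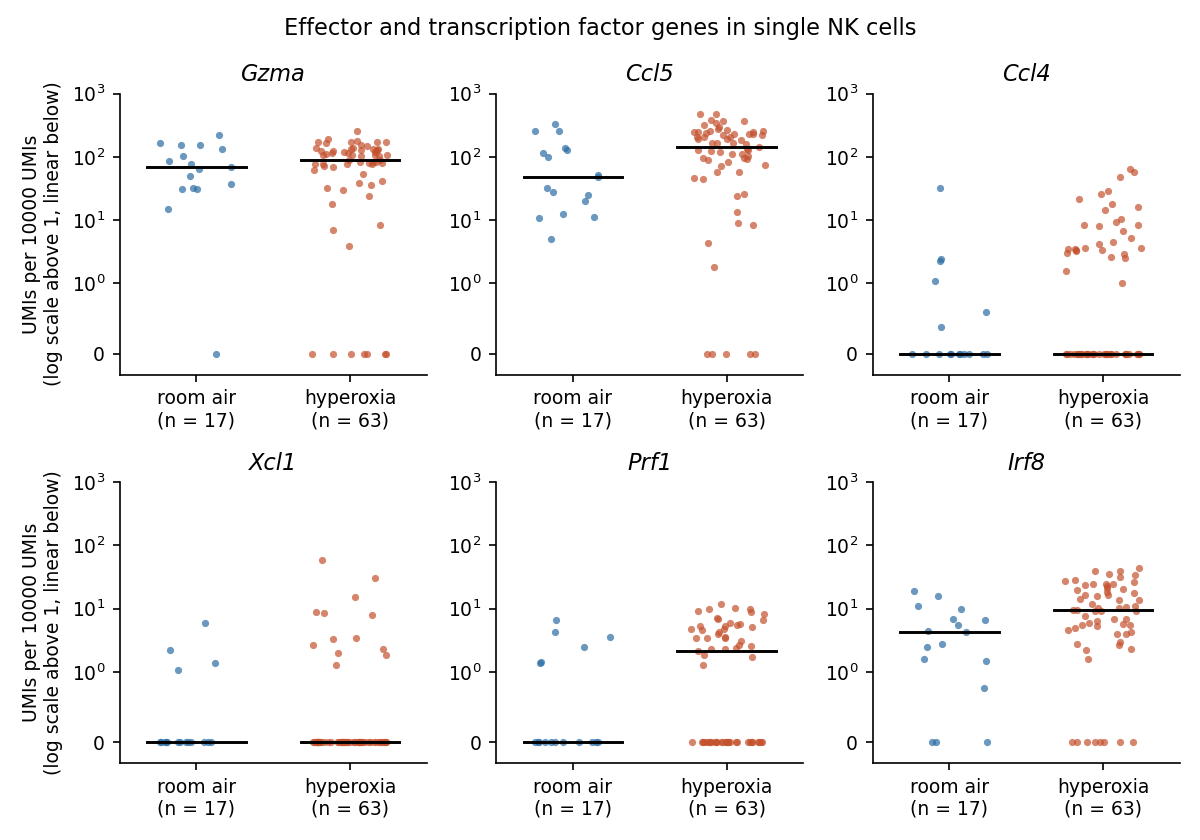
UMIs per 10000 UMIs of the cell (y axis, log scale above 1 and linear below) of 6 genes in each NK cell of room air (blue, 17 cells) and hyperoxia (red, 63 cells), with the median as a black line. *Gzma* covers like ranges in both libraries apart from the cells at 0, *Ccl4* has UMIs in 6 and 31 cells, and *Xcl1* is at 0 in all but 4 and 13 cells.

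Cells without *Gzma* differed from the others in several genes. There were 1 such cell in room air and 7 in hyperoxia, which lay between 3035 and 6294 UMIs, and since they were picked by their values no test applies. The 7 cells held 56 of the 69 *Xcl1* UMIs of hyperoxia (6 of 7 cells, highest 27) and 18 of the 22 UMIs of *Il7r*, the interleukin-7 receptor (5 of 7 cells). They had 0 UMIs of *Eomes*, *Prf1* and *Gzmb*, whereas *Tbx21* was counted in 6, *Klrk1* in 7 and *Ccl5* in 3 of them. *Tmem176a*, a membrane protein gene of the ILC1 list, was counted in 5 of the 7. The room air cell without *Gzma* had 4 *Xcl1* UMIs, 1 *Il7r* UMI, 0 *Eomes* UMIs and 2 *Tbx21* UMIs. *Xcl1* in the 56 hyperoxia cells with *Gzma* was at 49.0 CPM (13 UMIs in 7 cells), against 21.0 CPM (3 UMIs in 3 cells) in the 16 of room air. The room air count was at the floor of 3 UMIs, so these levels could not be told apart. In mice *Il7r* without *Eomes* is known from ILC1, a tissue-resident relative of NK cells that shares *Ncr1* and *Klrb1c*. Other genes of the list of ILC1 and tissue residence were at low levels, with 1 of 4 compared past the fold upwards (*Tmem176a*, 26.7 and 162 CPM, log2 ratio 2.60 with all members, 1.44 without the cells with transcripts of another type and 1.29 in the wider gate), 0 downwards and a median log2 ratio of 0.22. The 1 gene compared of the ILC2 and ILC3 list, *Rora*, was at 107 and 175 CPM (log2 ratio 0.72, -0.11 to 1.63).

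Among cytokine receptors and their signalling genes, *Il18rap*, the accessory chain of the interleukin-18 receptor, was the 1 of 13 compared past the fold upwards, with 0 downwards and a median log2 ratio of 0.13. It had 45 UMIs in 15 of 17 room air cells (median 2, highest 7) and 223 UMIs in 54 of 63 hyperoxia cells (median 3, highest 11). It was at 300 CPM (219 to 401) and 752 CPM (656 to 857), a log2 ratio of 1.33 (0.86 to 1.82), and 0.81 with the barcodes without *Cd3e* counted in. The ligand-binding chain *Il18r1* was at 340 and 371 CPM (log2 ratio 0.13, -0.37 to 0.63), and *Il2rb* at 333 and 253 CPM (-0.40, -0.93 to 0.15). *Jak1*, the kinase of many of these receptors, was at 573 and 917 CPM (0.68, 0.32 to 1.05) and *Stat3* at 113 and 223 CPM (0.97, 0.19 to 1.84).

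Of 16 transcription factors of the NK lineage compared, 1 was past the fold in each direction, with a median log2 ratio of 0.00. *Eomes* was at 240 and 236 CPM (log2 ratio -0.02, -0.62 to 0.60) and *Tbx21*, which codes for T-bet, at 127 and 175 CPM (0.47, -0.31 to 1.31). *Irf8*, an interferon regulatory factor, had 73 UMIs in 14 of 17 cells (median 3, highest 14) and 315 UMIs in 55 of 63 cells (median 4, highest 16). It was at 486 CPM (381 to 612) and 1062 CPM (948 to 1186), a log2 ratio of 1.13 (0.76 to 1.51), and 0.88 with the barcodes without *Cd3e* counted in. *Tcf7* (TCF-1, a factor of early NK cell development) was lower, with 40 UMIs in 12 of 17 cells (median 3, highest 7) against 29 UMIs in 19 of 63 (median 0, highest 3). It was at 267 CPM (190 to 363) and 97.8 CPM (65.5 to 140), a log2 ratio of -1.45 (-2.19 to -0.72), and -0.92 in the wider gate. At 1000 UMIs per cell the expected share of cells with *Tcf7* was 25.6% and 9.11%, a difference of -16.5 points whose interval included 0 (-43.6 to 3.75), and in B cells 0.329% and 0.573%. *Id2*, an inhibitor of E proteins, was at 706 and 462 CPM (-0.61, -0.99 to -0.23).

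Of 7 genes of mature NK cells compared, 2 were past the fold upwards and 0 downwards, with a median log2 ratio of 0.52, and the counting intervals of the other 5 included 0. The 2 were *S1pr5*, the receptor by which mature NK cells leave the marrow and lymph nodes, with 3 UMIs in 3 cells and 27 UMIs in 23 cells (19.99 and 91.0 CPM, log2 ratio 2.19, 0.49 to 4.55, and 1.45 in the wider gate), and *Cma1*, a chymase gene (127 and 290 CPM, 1.20, 0.47 to 2.00, and 1.26 in the wider gate). After thinning to 1000 UMIs per cell in 1 random draw, the log2 ratio was 0.92 for *S1pr5* and 0.11 for *Cma1*, neither past the fold. *Itgam* (CD11b) was at 200 and 287 CPM (0.52, -0.10 to 1.17) and *Klrg1* at 113 and 169 CPM (0.57, -0.25 to 1.46). *Ly6c2*, another gene of that list, had all 30 of its room air UMIs in 1 cell. Of 7 genes of immature NK cells compared, 2 were past the fold downwards and 0 upwards, with a median log2 ratio of -0.46, and the interval of 3 lay below 0. The 2 were *Thy1* and *Tcf7*, which were not past the fold in the wider gate. *Thy1* was at 207 and 101.1 CPM (-1.03, -1.80 to -0.26, and -0.71 in the wider gate). *Cd7* was at 320 and 169 CPM (-0.92, -1.53 to -0.32, and -0.50 in the wider gate). *Cd27*, in the other direction, was at 66.6 and 101.1 CPM (0.60, -0.47 to 1.80, and 0.14 in the wider gate). The mature and immature lists share genes with other lists here, among them *Tcf7*, *Il7r* and *S1pr5*.

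Of 16 migration and adhesion genes compared, 1 was past the fold upwards and 2 downwards, with a median log2 ratio of -0.05. *Ccr2*, the receptor for CCL2, was at 380 CPM in 15 of 17 cells and 185 CPM in 23 of 63 (log2 ratio -1.03, -1.60 to -0.47), -0.92 without the cells with transcripts of another type and -0.74 in the wider gate. *S1pr1* was at 113 and 43.8 CPM (-1.37, -2.53 to -0.24, and -2.06 without those cells), opposite to *S1pr5*. The integrin genes *Itgal* (367 and 361 CPM) and *Itgb2* (267 and 290 CPM), whose products form LFA-1, had intervals of the log2 ratio that included 0.

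**Figure D4:**
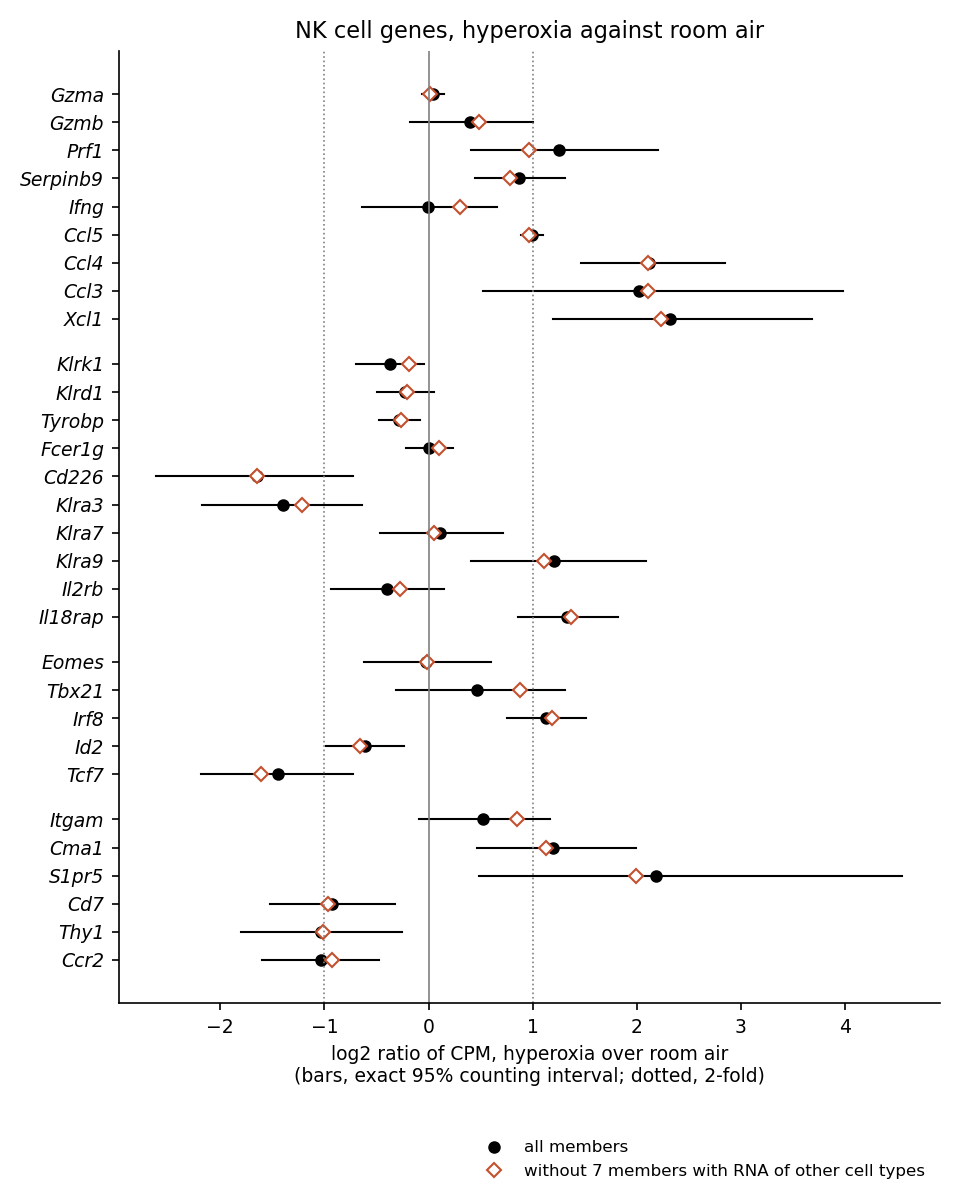
Log2 ratio of CPM, hyperoxia over room air (x axis), for 30 NK cell genes in 4 groups, with all members as black points and exact 95% counting intervals, and without the 7 cells with transcripts of other cell types as open diamonds; dotted lines mark 2-fold. *Ccl4*, *Xcl1* and *S1pr5* lie farthest to the right and *Cd226*, *Tcf7* and *Klra3* farthest to the left, with most diamonds close to their points.

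Immediate early and heat shock genes respond to stress and to the dissociation of a tissue. Of 17 compared, 5 were past the fold upwards and 0 downwards, with a median log2 ratio of 0.41. The counting interval lay above 0 for 8 of them and below 0 for 2. *Jun* was at 73.3 and 223 CPM (log2 ratio 1.60, 0.67 to 2.67, and 1.01 without the cells with transcripts of another type), *Egr1* at 140 and 334 CPM (1.25, 0.56 to 2.01) and *Dusp1*, a phosphatase of MAP kinases, at 167 and 391 CPM (1.23, 0.60 to 1.92, and 0.84 in the wider gate). *Dusp1* had log2 ratios of 1.22 in CD8 T, 1.14 in CD4 T and 0.55 in B cells, and the list a median of 0.25, 0.30 and 0.54 in these cells. *Cdkn1a*, the cell cycle inhibitor p21 and a target of p53, had 12 UMIs in 4 cells (highest 7) and 88 UMIs in 24 cells (highest 26), at 80.0 and 297 CPM (1.89, 1.02 to 2.90, and 1.11 in the wider gate). Of the hyperoxia UMIs, 26 came from 1 cell with stromal transcripts and 24 from another. Of the room air UMIs, 7 came from 1 cell with macrophage transcripts. The log2 ratio was 1.78 without the cells with transcripts of another type, and the CPM values above include them. *Cdkn1a* was counted in 7.28% and 19.0% of B cells, and its log2 ratio was 2.68 in CD8 T, 0.79 in CD4 T and 2.74 in B cells. Of 5 p53 targets compared, 1 was past the fold upwards and 0 downwards, with a median of 0.68 with all members and 0.20 without the cells with transcripts of another type.

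The levels of interferon-stimulated genes rested in part on single cells. Of 6 compared, 2 were past the fold downwards and 0 upwards, with a median log2 ratio of -0.83, which was -0.26 without the 7 cells with transcripts of another type. *Isg15* was at 93.3 and 23.6 CPM with 10 of its 14 room air UMIs in 1 cell, and its log2 ratio of -1.98 was 0.16 without those cells. *Ifi203* was at 307 and 138 CPM (-1.15, -1.79 to -0.51), with 16 of 46 room air UMIs in 1 cell, and its log2 ratio was -0.61 without the mixed cells, so that neither gene was then past the fold. *B2m*, the light chain of MHC class I, was at 1693 and 2350 CPM (0.47, 0.26 to 0.69, and 0.17 in the wider gate). *Tap2*, a peptide transporter of the same pathway, was lower in hyperoxia, at 140 and 57.3 CPM (-1.29, -2.30 to -0.29, and -1.07 in the wider gate). Of 11 MHC class I genes compared, 0 were past the fold upwards and 1 downwards, with a median of -0.15.

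Few NK cells were cycling. *Mki67* or *Top2a* was counted in 4 of 17 cells in room air and 13 of 63 in hyperoxia, and at 5 or more UMIs in 1 cell of each, with 22 and 24 UMIs. Of 4 cell cycle genes compared, 0 were past the fold, with a median log2 ratio of -0.23. These ratios moved with the cells kept and the other settings. They ran from -1.33 to 1.72 for *Top2a*, -1.57 to 1.65 for *Stmn1*, -0.81 to 0.48 for *Pcna* and -1.09 to -0.33 for *Hmgb2*. Of 11 antioxidant genes compared 0 were past the fold, with a median of -0.08. *Fth1*, the heavy chain of ferritin, was at 1199 and 1763 CPM (log2 ratio 0.56, 0.31 to 0.81), and *Txn1* and *Prdx1* at 420 and 300.1 CPM and at 313 and 246 CPM. Of 8 genes of glycolysis and the response to hypoxia compared, 1 was past the fold upwards, *Egln1*, an oxygen sensor, at 26.7 and 80.9 CPM (1.60, 0.06 to 3.59), and 0 downwards, with a median of 0.25.

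Named by size alone, at a mean of at least 100 CPM, the genes most above room air were *Meg3*, *Dcn*, *Postn*, *Tagln*, *Xcl1*, *Ccl4*, *Ctgf*, *Aspn*, *Nrgn* and *Fgl2*, and those most below were *Il1b*, *Prss35*, *Cd226*, *Net1*, *Dpm3*, *Rps27rt*, *Gm11808*, *Socs2*, *Tcf7* and *Tmem258*. Of the first group 6 are genes of fibroblasts or smooth muscle, and *Dcn* (67 of 68 UMIs in 1 cell), *Tagln* (highest 152 UMIs) and *Aspn* (highest 235 UMIs) rested on few cells. *Il1b* and *Prss35* had 28 and 42 UMIs in 1 room air cell each. Without the 7 cells with transcripts of another type, the 10 highest were *Xcl1*, *Ccl4*, *Nrgn*, *Serpinb9b*, *Nfkb1*, *Purb*, *Akna*, *Coro2a*, *Dnajc1* and *Bptf*. *Serpinb9b*, a relative of *Serpinb9*, was at 46.7 and 188 CPM in the remaining cells (log2 ratio 2.01), its room air UMIs all in 1 cell, and *Nfkb1*, the p50 and p105 subunit of NF-kB, at 103 and 335 CPM (1.71), in 10 of 17 and 36 of 63 cells of all members. The 10 lowest then were *Bod1l*, *2810417H13Rik*, *Bola3*, *St3gal6*, *Cd226*, *Dpm3*, *Tcf7*, *Usmg5*, *Erp44* and *Rnaset2a*, with *Tcf7* at 327 and 107 CPM (-1.61).

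Set beside the other gated lymphocytes, NK cells had the highest levels of *Gzma*, *Prf1* and *Ccl5*. The T and B cell gates left out barcodes with a UMI of *Ncr1*, *Klrb1c* or *Klre1*, so T cells with these transcripts were not part of the comparison. In room air and hyperoxia *Gzma* was at 877 and 796 CPM in CD8 T, 22.7 and 22.6 CPM in CD4 T and 2.87 and 3.61 CPM in B cells, each below the 7243 and 7468 CPM of NK cells. *Ccl5* was at 2014 and 2874 CPM in CD8 T cells and *Klrd1* at 358 CPM in both libraries. *Irf8* was at 190 and 234 CPM in B cells and at 13.5 and 23.9 CPM in CD8 T cells, and its log2 ratio was 0.82 in CD8 T, 1.04 in CD4 T and 0.30 in B cells. The CD8 T ratio rests on few UMIs in room air, where 1 UMI of these cells was worth 1.69 CPM. *Prf1* was at 5.06 and 11.6 CPM in CD8 T cells, a log2 ratio of 1.20. The room air value lay at the floor of 3 UMIs for CD8 T cells, so this ratio cannot be set beside that of NK cells. *Tcf7* was at 545 and 357 CPM in CD8 T and at 470 and 663 CPM in CD4 T cells, above NK cells in both libraries, and its log2 ratio was 0.50 in CD4 T cells. *Il18rap* was at 70.8 and 69.2 CPM in CD8 T cells and at 46.7 and 20.1 CPM in CD4 T cells. Since the gates use the counts of these cells, the levels are a description, and differences between the cell types in their ratios were not tested.

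**Figure D5:**
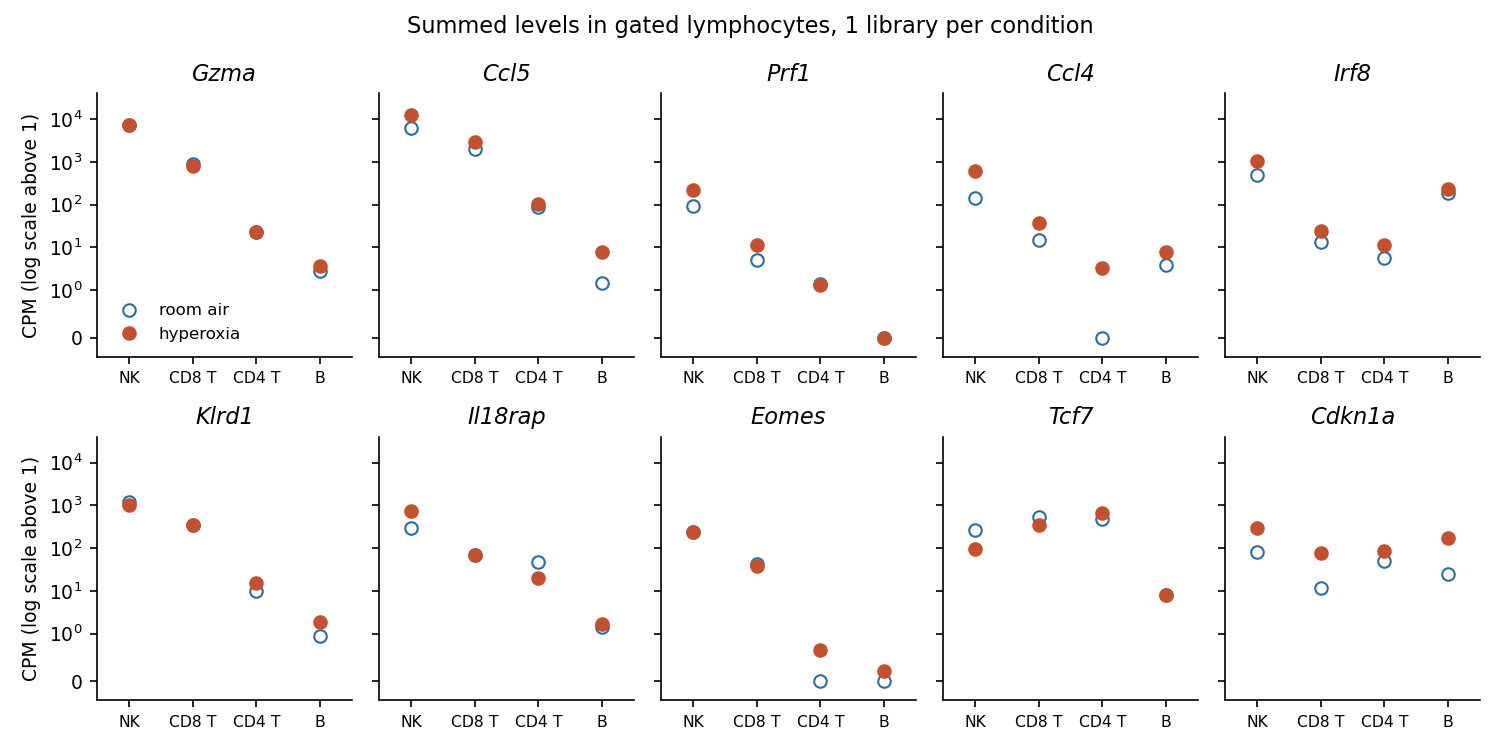
Summed CPM (y axis, log scale above 1 and linear below) of 10 genes in gated NK, CD8 T, CD4 T and B cells (x axis) of room air (open blue) and hyperoxia (filled red), 1 library per condition. *Gzma*, *Ccl5*, *Prf1* and *Eomes* are highest in NK cells in both libraries, *Tcf7* is highest in T cells, and *Cdkn1a* is higher in hyperoxia in each of the 4 cell types. The T and B cell gates leave out barcodes with a UMI of *Ncr1*, *Klrb1c* or *Klre1*.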

How the data were processed

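Raw UMI counts per gene and barcode, made by the authors with Cell Ranger on mm10, were deposited for 1 pooled library per group. The submitters' processing notes name Cell Ranger 2.1.1, the protocol in the labels 6.1.1 and the matrix headers software 3.1.0, and which made the counts was not settled. Tables were made in Python 3.11.15 (pandas 2.3.3, scipy 1.17.1, numpy 2.4.6). Members were taken by the rule given in the results, and T and B cells by like gates (T cells with at least 2 UMIs of the CD3 genes). The T and B cell gates also required that no UMI of *Ncr1*, *Klrb1c* or *Klre1* was counted. UMIs were summed over the cells of a library and scaled to CPM, which corrects for depth but not for free RNA or for cells that share a barcode. Doublets were not called. Shares have exact Clopper-Pearson, CPM exact Poisson and ratios exact conditional binomial intervals at 95%, and no test was made. Intervals of thinned shares and of their differences rest on expected, non-integer counts and are approximate. The steps were tested on simulated data. Genes of the rule were left out of all lists and of the background. Shares of cells with a UMI were also computed as the mean over all ways of thinning each cell to 1000 UMIs, without the B cells below that depth. A deposited symbol was matched to GENCODE vM21 by gene ID. Genes were named as members of the lists, as the 10 highest and 10 lowest ratios at a mean of at least 100 CPM that were in the higher library at or above the level over all kept barcodes (genes of the rule, mitochondrial and sex-linked genes left out), or as the 15 most above other barcodes. *Serpinb9b* and *Nfkb1* and the other genes named without the mixed cells, and the cells without *Gzma*, were chosen after their values were seen. The members and lists were chosen with earlier results of these data known. Other limits on cells, gates, scalings, floors and folds were tried.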

Additional observations from a re-analysis of the deposited data

Results flagged for a closer look

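There were 4 genes past the fold in NK cells in one direction and in T cells in the other, each with counting intervals on its own side of 0, and with 1 library per group the difference was not tested. *Il18rap* had a log2 ratio of 1.33 in NK cells and -1.22 (-1.98 to -0.47) in CD4 T cells. *Postn* had 4.74 in NK cells and -1.13 (-1.73 to -0.53) in CD4 T cells, and *Tagln* 3.31 and -1.32 (-1.69 to -0.95). *Net1* had -1.61 in NK cells and 1.49 (0.65 to 2.47) in CD8 T cells. In *Postn*, *Tagln* and *Net1* single cells held many of the UMIs, up to 62 and 152 in hyperoxia and 35 in room air.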

How the results depend on the processing

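No paired analysis was possible because each group had 1 library. Depth was low, with 17 cells and 150073 UMIs in room air. Not every setting gave every gene a value. Thinning gave none for some, such as *Ccl3*, *Cd226* and *Cdkn1a*. *Aspn* and *Prss35* had all their room air UMIs in 1 cell, so the setting without the cell with most UMIs gave none and could not check them. Of 43 named genes past the fold whose counting interval left out 0, 36 kept their direction under each of the 12 settings that gave them a value. The exceptions were *Isg15*, with 0.31 without cells above 2 times the median UMIs, 0.16 without the mixed cells and 0.11 after thinning to 1000 UMIs; *Net1*, with 0.41 and 0.26 under the first 2 of these, 2.33 without cells with *Cd4*, *Cd5*, *Cd6* or *Cd8b1* and 1.02 without the cell with most UMIs; *Tagln*, with -1.91 and -2.06; *Dnajb1*, *Ifi203* and *Klra3*, with -0.89, 1.70 and 0.017 after thinning; and *Xcl1*, with -0.19 when *Cd3e* alone was excluded. The cause was not tested. The setting without cells with *Cd4*, *Cd5*, *Cd6* or *Cd8b1* kept 16 of the 17 members in room air and 63 of 63 in hyperoxia. The 233 genes past the fold upwards were 141 with *Cd3e* alone excluded, 483 after thinning, 778 and 76 at mean CPM floors of 20 and 100, 540 at 1.5-fold, and 148 when the interval had to leave out 0. The 140 downwards were 54, 727, 465, 45 and 440 under the first 5 of these, and 275 with scaling without mitochondrial, ribosomal and haemoglobin genes. The 18 listed genes upwards were 8 with *Cd3e* alone, 29 after thinning and 36 at 1.5-fold. The 10 downwards were 16 without cells with *Cd4*, *Cd5*, *Cd6* or *Cd8b1*, 5 with *Cd3e* alone, 18 with the other scaling, 28 after thinning, 22 and 6 at floors of 20 and 100, and 23 at 1.5-fold. Thinned levels come from 1 random draw. The NK share in room air and hyperoxia was 0.893% and 0.820% with *Cd3e* alone, 3.25% and 3.31% of gated lymphocytes, and 1.04% and 1.32% of barcodes with *Ptprc*, and 0.404% and 0.362% after thinning, with the order of the libraries turned in the first and last of these. The *Cd3e* gate, the setting without mixed cells, the interval rule and the setting without the top cell were chosen after seeing the data.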
